A study of Mus musculus with 217 samples.

Results

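The proteasome is the protease complex that degrades most short-lived and damaged proteins of the cytosol and nucleus once they carry chains of ubiquitin. Its genes were described across single cells of the mouse growth plate, the cartilage in which chondrocytes pass from resting through dividing to hypertrophic cells. The members are all measured genes whose symbols begin with Psma to Psmg, 46 of the 9739 named genes of the deposited table. They comprise 16 core genes (Psma and Psmb), 20 cap genes (Psmc and Psmd), 4 activators (Psme) and 6 others (the inhibitor Psmf1, 4 Psmg chaperones, and Psmc3ip, which matches by symbol but encodes a recombination factor and no subunit). The listed subunits Psmb8, Psmb9 and Psmb11 and the retrocopy Psme2b were not analysed here.

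The core is a barrel of alpha and beta rings with the proteolytic sites inside the beta rings, where Psmb6, Psmb5 and Psmb7 encode the caspase-like, chymotrypsin-like and trypsin-like subunits. The cap binds ubiquitin chains, removes them and feeds unfolded protein into the barrel with its ring of ATPases. Activators of the Psme family open the same gate without ATP hydrolysis. In cartilage this system is known to turn over regulators of chondrocyte maturation, and it clears misfolded proteins in cells that secrete much matrix.

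The cells were of the wild type genotype and the C57/BL strain, and came from microdissected tibia growth plates at postnatal day 7. All 217 deposited columns carry these same labels, and there is no other group. No animal, litter or plate is named, so the cells were treated as 1 sample of 1 group, no test was possible, and no p-value is given. The ± values are SDs over profiles, and the 95% exact (Clopper-Pearson) intervals cover counting error only.

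Columns that correlated above 0.95 were averaged as repeats of 1 cell (23 sets holding 52 columns), and 1 column, which the member rule names, was left out. Of the profiles so obtained, 11 had a deposited Acan value below 5, Acan encoding the cartilage proteoglycan aggrecan, and the results use all the others, called profiles from here on. The nearest Acan values on either side of this limit were 2.91 and 6.67. Of the 8 chondrocyte markers, Acan was present by selection, Sox9, Col9a1, Col11a1, Hapln1 and Lect1 were detected in 100% of these profiles and Matn1 in 98.9%, whereas Col2a1, the main collagen of cartilage, was detected in 37 profiles. Pecam1 (endothelial) was detected in 4 profiles, Cd79a (lymphocyte) in 5, and the 4 measured macrophage markers in a median of 8.24% of profiles. Of the 2 measured osteoclast markers, Ctsk was detected in 68.2% of profiles and Mmp9 in 5 profiles. A profile held from 1326 to 4994 detected genes (median 3463.5), detection being a back-transformed value of at least 1. Sequencing depth is unknown, because the values were scaled before deposit.

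Core subunits had the highest levels, cap subunits lay below them, and activators and chaperones were low. On the deposited log2 scale, the median of the members' mean levels was 7.50 for the core, 5.56 for the cap and 1.99 for the activators. The median share of profiles with detection was 97.4%, 88.9% and 43.8%. Of the 46 members, 20 were each detected in at least 90% of profiles, beside 9.20% of all 9739 genes. Whether the deposited values were divided by transcript length is not known from the sources used. As an alternative added after the data were seen, the log2 of the longest coding transcript's length in kilobases was subtracted from each member's mean level. The medians were then 7.11, 4.57 and 0.76 for core, cap and activators, in the same order. The means include zeros, so for genes that are mostly 0 the result is not a level per length, and Psmd2 fell to -0.94.

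**Figure D1:**
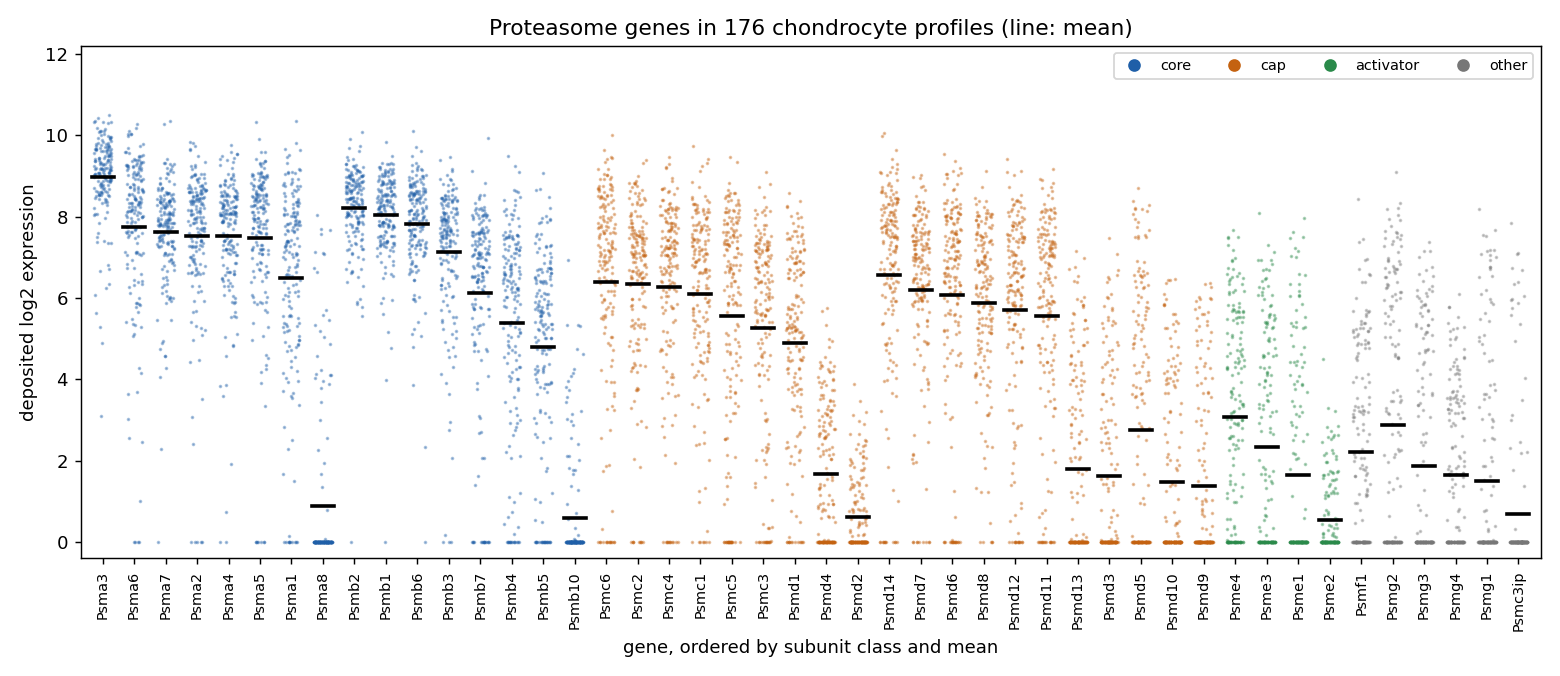
Each point is the deposited log2 expression (vertical axis) of 1 gene in 1 chondrocyte profile, the black lines are means, and genes are ordered by subunit class and mean, with colour for class. Most core and cap genes lie between means of 4.80 and 8.97, whereas Psma8, Psmb10, Psmd2, Psmd3, Psmd4, Psmd13, the cap and core chaperones and the activators lie at or below 3.08.

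Among the alpha subunits, Psma3 was the highest member of all. Its lowest, median and highest levels were 3.11, 9.15 and 10.51 on the log2 scale (mean 8.97 ± 1.04), it was detected in every profile (100%, interval 97.9 to 100%), and it was the highest of the 46 genes in 89 of them. Psma2, Psma4, Psma5, Psma6 and Psma7 lay close together, with means of 7.48 to 7.76 on the log2 scale. Psma1, lowest of the 7 general alpha subunits, ranged from 0 to 10.36 with a median of 7.16 (mean 6.48 ± 2.39). Psma8, which encodes the alternative alpha subunit of male germ cells, was at 0.89 ± 2.04 and was detected in 32 profiles (18.2%, interval 12.8 to 24.7%). Its levels where detected averaged 4.87 ± 1.90, so it was well above the detection limit in a minority of profiles and at 0 in most. Psma4, a general alpha subunit, exceeded Psma8 in 97.7% of profiles and was lower in 2.

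The 7 constitutive beta subunits covered a wider range of levels. Psmb2 had a median level of 8.43 (0 to 10.08, mean 8.22 ± 1.05), Psmb1 a mean of 8.04 ± 1.09 Psmb3 of 7.13 ± 1.69 and Psmb4 of 5.38 ± 2.48, and these subunits carry no proteolytic activity. The 3 proteolytic subunits were unequal. Psmb6 had a median of 8.04 (0 to 10.12), Psmb7 of 6.91 (0 to 9.94) and Psmb5, the target of the drug bortezomib, of 5.38 (0 to 9.09), with means of 7.82 ± 1.23, 6.12 ± 2.34 and 4.80 ± 2.39. Within profiles Psmb6 exceeded Psmb5 in 93.8% and Psmb7 in 76.7% of cases, while Psmb7 exceeded Psmb5 in 71.6%. Psmb5 is uncertain, because 57.1% of the 50-base words of its longest transcript also occur in transcripts of other genes, among them a pseudogene, and the authors' counting could have split such reads. The same holds for Psmb3 (55.8%) and Psma5 (54.5%), and with smaller shares for Psma4 (25.6%), Psmg3 (22.7%), Psma3 (22.02%), Psmc1 (17.6%), Psme1 (14.1%) and Psmd11 (14.04%).

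Psmb10, the inducible subunit that takes the place of Psmb7 in the immunoproteasome of immune and interferon-treated cells, was low. Its median level was 0 (0 to 6.94, mean 0.58 ± 1.37), and it was detected in 30 profiles (interval for the share 11.8 to 23.4%). Psmb7 was higher in 90.3% of profiles, Psmb10 in 3, and both were equal in 14. The mean difference within a profile was 5.54 ± 2.63 on the log2 scale. The corresponding pairs for Psmb5 and Psmb6 were not analysed here.

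The promoters of Psma7, Psmb6 and Psmb5 are shown because each pair of these core genes had a rho of at least 0.26, among the closest of all member pairs, as described further on. Each window runs from 250 bases before to 50 after the RefSeq start site (build GRCm38.p6, 300 bases, 5′ to 3′ on the gene's strand). Capitals mark matches, on either strand, to a CCAAT box (CCAAT), a GC box (GGGCGG) or the core of the antioxidant response element (TGACNNNGC).
Psma7, chromosome 2, 180042415 to 180042714, minus strand: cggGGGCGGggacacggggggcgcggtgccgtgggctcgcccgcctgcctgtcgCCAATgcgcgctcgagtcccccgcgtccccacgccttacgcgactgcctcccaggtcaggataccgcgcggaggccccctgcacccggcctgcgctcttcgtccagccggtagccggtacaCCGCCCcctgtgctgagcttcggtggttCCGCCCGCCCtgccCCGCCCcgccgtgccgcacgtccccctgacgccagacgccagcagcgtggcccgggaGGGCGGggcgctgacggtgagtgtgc
Psmb6, chromosome 11, 70525107 to 70525406, plus strand: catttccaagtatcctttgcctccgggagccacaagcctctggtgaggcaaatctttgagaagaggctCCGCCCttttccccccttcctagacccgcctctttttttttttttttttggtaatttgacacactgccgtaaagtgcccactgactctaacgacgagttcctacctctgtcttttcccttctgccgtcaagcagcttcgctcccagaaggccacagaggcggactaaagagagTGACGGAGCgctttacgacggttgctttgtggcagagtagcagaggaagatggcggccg
Psmb5, chromosome 14, 54617946 to 54618245, minus strand: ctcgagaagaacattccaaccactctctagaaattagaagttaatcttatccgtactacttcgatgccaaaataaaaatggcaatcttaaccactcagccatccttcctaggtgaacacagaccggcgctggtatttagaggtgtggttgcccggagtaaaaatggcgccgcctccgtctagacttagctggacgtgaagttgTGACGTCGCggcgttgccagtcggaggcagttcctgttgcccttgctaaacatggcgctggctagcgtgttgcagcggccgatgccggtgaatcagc

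The Psma7 window is GC-rich (77% G and C) with 6 GC boxes and 1 CCAAT box, whereas those of Psmb6 and Psmb5 (52.7% and 51.7%) each hold 1 antioxidant response element core, beginning at position -9 and -47 from the start site. Windows were found for 37 of the 46 members (40 windows), Psmc3ip not being looked up. The antioxidant response element core, the kind of site that the proteasome regulators encoded by Nfe2l1 and Nfe2l2 recognise, occurred in 6 member genes (15% of member windows, beside 12.4% of all 32851 windows). GC boxes occurred in 57.5% of member windows (35.7% of all), CCAAT boxes in 30% (37.4%), TATA boxes (TATAAA) in 7.5% (13.6%), the nuclear respiratory factor site in 17.5% (4.60%) and the ETS site (CCGGAAGT) in 25% (3.89%). The 9 genes with an ETS site were Psma6, Psmc1, Psmc2, Psmd6, Psmd12, Psmd13, Psme3, Psme4 and Psmg3. The median G and C content was 58.2% for member windows and 52.7% for all windows, and its part in the motif shares was not tested. A match of letters is a description and was not tied to binding or to any level here.

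In the cap, the ATPases were even. The 6 ATPase genes Psmc1 to Psmc6 had means of 5.25 to 6.39 on the log2 scale and were detected in 88.1% to 94.9% of profiles. Psmc6 was the highest (median 7.13, 0 to 10.01, mean 6.39 ± 2.57) and Psmc3 the lowest (median 5.99, 0 to 9.10, mean 5.25 ± 2.49), a gap smaller than either SD.

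The other cap subunits were not even. Psmd14, the deubiquitinase of the lid, had a median of 7.36 (0 to 10.07, mean 6.56 ± 2.41), and 5 further lid genes (Psmd6, Psmd7, Psmd8, Psmd11 and Psmd12) had means of 5.57 to 6.19. The remaining lid genes among the members stood apart. Psmd13 was at 1.78 ± 2.25 and was detected in 44.3% of profiles, and Psmd3 was at 1.62 ± 2.19 and was detected in 40.3%. In the base, the scaffold gene Psmd1 was at 4.89 ± 2.27, the ubiquitin receptor gene Psmd4 at 1.66 ± 1.68 and the other large scaffold gene, Psmd2, at 0.62 ± 0.91. Psmd2 had a median of 0 and never exceeded 3.88. It was detected in 47 profiles (26.7%, interval 20.3 to 33.9%), although each 26S proteasome carries its protein. Psmd1 was lower than Psmd2 in 7 profiles and equal in 7, and exceeded it by a mean of 4.27 ± 2.35 over all.

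Properties of the transcripts were set beside these levels. The longest coding transcripts of the 46 members ran from 555 to 6491 bases, and across them the mean level had a rho of -0.12 with length and -0.35 with GC content (-0.18 and -0.12 over 8942 genes that could be matched). These are correlations across genes, which are not independent. The 27 members detected in at least 80% of profiles had a median GC content of 49.2%, and the 19 others 51.5%, a division made after the levels were seen. Of the 50-base words of the transcript, 10% or more occurred in other genes' transcripts for 7 of the 27 and for 4 of the 19. For Psmd2 this share was 26.4%, for Psmd13 0.67%, and for Psmd3 and Psmd4 it was 0. Exons of 10 members overlap a gene on the opposite strand, among them Psmd13 (Sirt3), Psmd3, Psmc3 and Psmb7, and whether the counting used strand is not known from the sources used. The part of these properties in the levels was not tested. Psmd2 lies on chromosome 16, 20651652 to 20663414 (plus strand, GRCm38), and Psmd3 on chromosome 11, 98682554 to 98695979 (plus strand).

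Most genes for factors that assemble the complex were also low. The cap chaperone genes Psmd5, Psmd10 and Psmd9 had means of 2.76 ± 2.97, 1.48 ± 2.09 and 1.37 ± 2.08. The core chaperone genes Psmg2, Psmg3, Psmg4 and Psmg1 had means of 2.87 ± 3.04, 1.87 ± 2.52, 1.66 ± 1.87 and 1.50 ± 2.45, and Psmf1, whose protein binds the core and can inhibit it, had 2.22 ± 2.34. Pomp, which encodes the core maturation factor, was measured outside the symbol rule and was at 7.86 ± 1.55 with detection in 98.3% of profiles. Psmc3ip, no subunit, was at 0.68 ± 1.83 with detection in 14.2%.

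The activators differed in order, with wide spread. Psme4, which encodes the nuclear activator PA200, had a median of 3.13 (0 to 7.67, mean 3.08 ± 2.46) and was detected in 69.3% of profiles. Psme3, for PA28 gamma, had a median of 1.38 (0 to 8.09, mean 2.34 ± 2.54, 51.7%), and the interferon-inducible partners Psme1 and Psme2, for PA28 alpha and beta, had medians of 0 (0 to 7.98 and 0 to 4.51, means 1.64 ± 2.41 and 0.53 ± 0.91), with detection in 63 and 44 profiles. Neighbours in this order differed by less than their spread: Psme4 exceeded Psme3 by 0.75 ± 3.14 within a profile, and Psme3 exceeded Psme1 by 0.70 ± 3.36. Psme2 is uncertain, since 59.3% of its 50-base words also occur in Psme2b or a pseudogene.

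The combined presence of subunits varied between profiles. All 14 general core subunits (Psma1 to Psma7 and Psmb1 to Psmb7) were detected in 64.8% of profiles and all 6 ATPases in 65.3%. All 8 lid members were detected in 15.3% and all 17 cap members without chaperones in 1.70% (3 profiles). These counts cover members by symbol only, and cap subunits with other symbols, such as Shfm1, are not in them. A profile held 10 to 44 of the 46 members, with a median of 33. This number followed the number of all genes detected (rho = 0.77 over the profiles, all of 1 sample), which depends on the RNA captured from each cell and on sequencing. The mean level over the 36 core and cap genes ran from 1.25 to 6.51 (mean 5.29 ± 0.66) and had a rho of 0.72 with genes detected.

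Repeat columns were chosen for their likeness over all genes, so a spread between them that is smaller than between profiles was fixed by that choice, and no label says that they are 1 cell. They are given to compare the members with each other. The SD between repeats had a median of 0.33 over the 46 members, against a median SD of 2.17 between profiles. It was smallest for Psma5 (0.12) and largest for Psmg4 (1.01), Psmb5 (0.86) and Psmb4 (0.63). Of 1610 values compared between repeat columns, 48 (2.98%) were detected in only 1 of them. Psma8, for example, was undetected in every column of 21 sets and detected in every column of the other 2. The sources do not say whether repeats share the cDNA of 1 cell, so these SDs may leave out error from capture and cDNA synthesis.

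**Figure D2:**
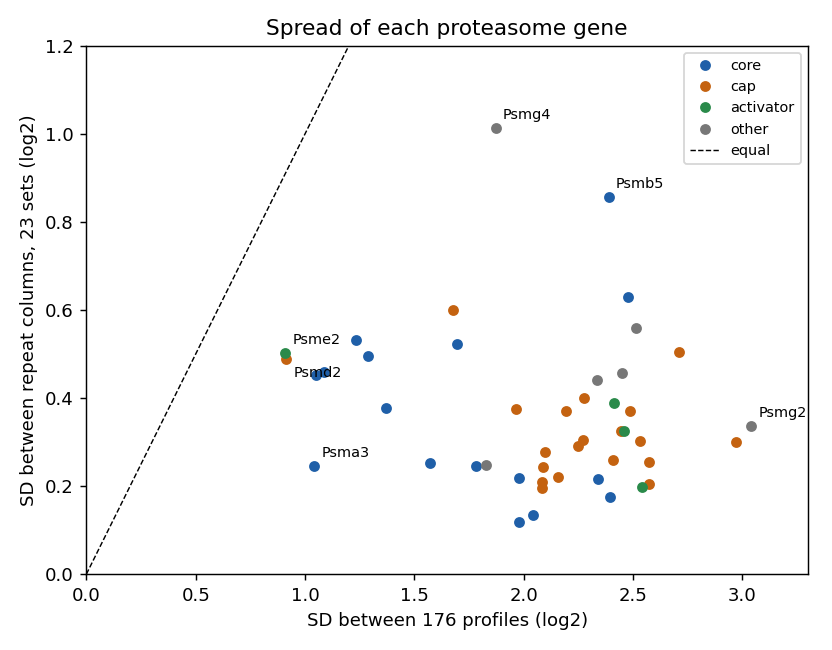
Each point is a proteasome gene, with its SD between profiles on the horizontal axis and its SD between repeat columns (23 sets) on the vertical axis, both on the log2 scale, and colour for class. Repeats were chosen for likeness, which places points below the dashed line of equal spread, and among the genes Psmg4 and Psmb5 have the largest SD between repeats.

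In the deposited values, measured levels of proteasome genes varied together only weakly from profile to profile. The part of error from capture and cDNA synthesis in the size of these values was not tested. Among the 43 members detected in at least 20% of profiles (Psma8, Psmb10 and Psmc3ip fell below this), the median Spearman rho over 903 pairs was 0.05, beside 0.03 over all pairs of 5380 genes. Pairs within the core had a median of 0.08 (91 pairs), within the constitutive beta subunits 0.14 (21 pairs), within the cap 0.05 (190 pairs) and between core and cap 0.04 (280 pairs). A rho of at least 0.2 was reached by 28 of the 903 pairs (3.10%, beside 2.10% of all pairs) and by 10 of the 91 core pairs. With the number of genes detected held constant, the medians were 0.02 for all members, 0.06 for the core and 0.002 for all genes. After upper-quartile scaling of each profile the median was 0.20 for core pairs and 0.11 for all member pairs, beside 0.06 for all genes.

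The closest pairs lay in the core. Psma7 and Psmb6 had a rho of 0.34, Psma7 and Psmb5 of 0.29, Psmb1 and Psmb6 of 0.29, Psma1 and Psmb7 of 0.27, and Psmb5 and Psmb6 of 0.26. Given genes detected, the values for Psma7 with Psmb6 and with Psmb5 were 0.30 and 0.24. Outside the core, Psma5 and the lid gene Psmd12 had 0.26 (0.25 given genes detected), and Psme3 with Psme4, Psmd11 with Psme1, and Psmd3 with Psmd4 had 0.25 each. The most opposed pair was Psmd8 with Psmg2, at -0.21. Points of these correlations are cells that differ in genes detected, a property that both genes of a pair share within a cell. Ranks of genes with many zeros hold many ties.

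**Figure D3:**
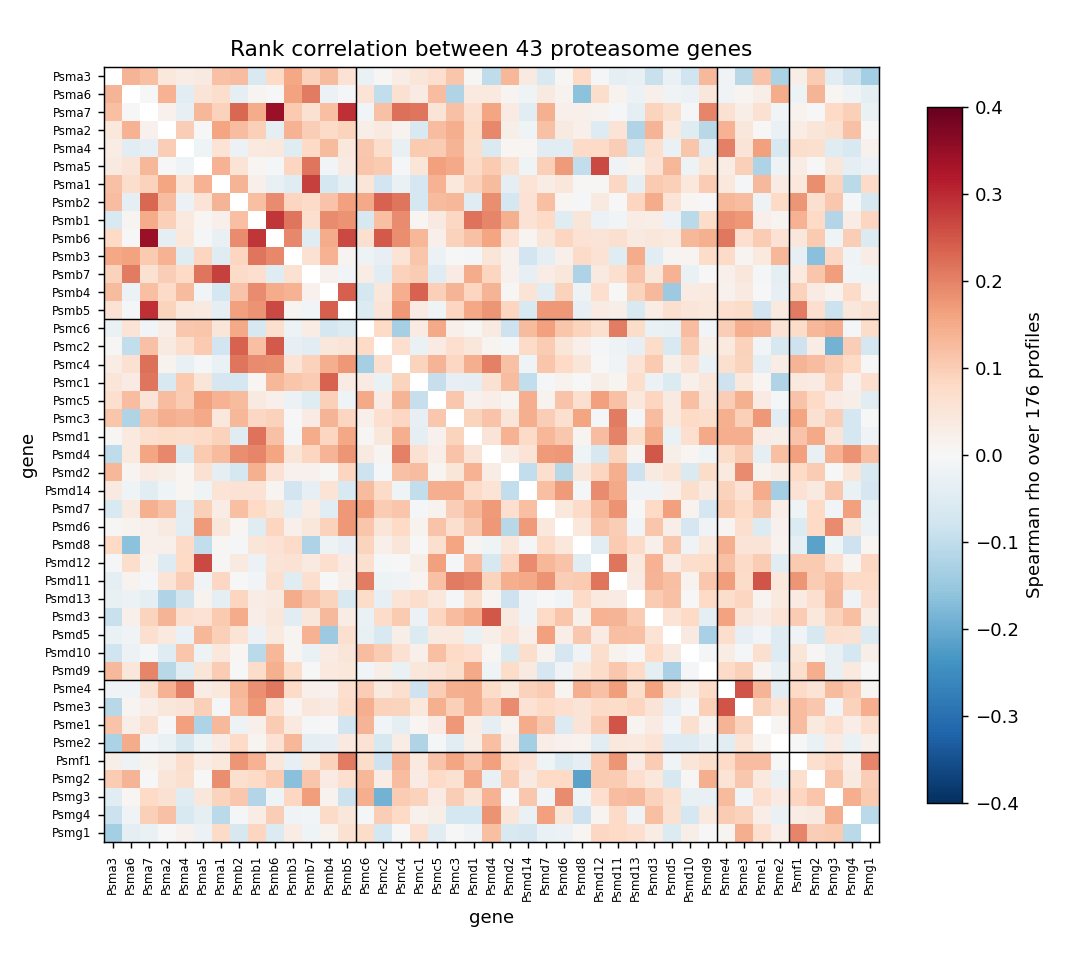
The colour of each cell is the Spearman rho over all profiles between 2 of the 43 proteasome genes named on the axes, from blue (negative) to red (positive), with lines between core, cap, activator and other genes. Most cells are pale, and the darkest red lies among Psma7, Psmb6 and Psmb5 in the core, with a rho of up to 0.34.

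Genes outside the proteasome with the pattern most like the mean of the 36 core and cap genes were ranked by rho given genes detected, over all profiles. The 10 highest of 5337 were Eps8l2 (0.31), Itm2b (0.28), Snap47 (0.27), Mrpl35, Snx4 and Anxa8 (0.26 each), and Ctnna1, Scarb1, Isg20 and Hdlbp (0.25 each). The closest member pair, Psma7 and Psmb6, had a rho of 0.30 given genes detected. That value relates a gene to another gene, whereas those above relate a gene to a mean of 36 genes. The values are therefore not comparable, and those of members against the mean are not given here.

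Col10a1 encodes the collagen made by hypertrophic chondrocytes. It ranged from 0 to 14.62 with a median of 7.59 and was detected in 77.8% of the profiles, all but 39. Most members had a weak positive relation to it. The median rho was 0.11 over 43 members (37 above 0), beside 0.06 over 5379 genes, of which 67.7% lay above 0. A rho of at least 0.2 was reached by 7 of the 43 (16.3%), beside a background of 11.5% of all genes, and none was at or below -0.2, beside 3.27%. With genes detected held constant, the median was 0.06 and 4 members reached 0.2 (Psma7, Psmb6, Psme4 and Psmc3), beside 5.21% of all genes, and none was at or below -0.2, beside 5.26%. With upper-quartile scaling, 16 of 43 did, beside 19% of all genes. The mean level over the 36 core and cap genes, which follows genes detected more closely than single members do, had a rho of 0.36 with Col10a1 and of 0.19 given genes detected. By class, the median rho was 0.14 for the core (14 members), 0.11 for the cap (20) and 0.17 for the activators (4).

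**Figure D4:**
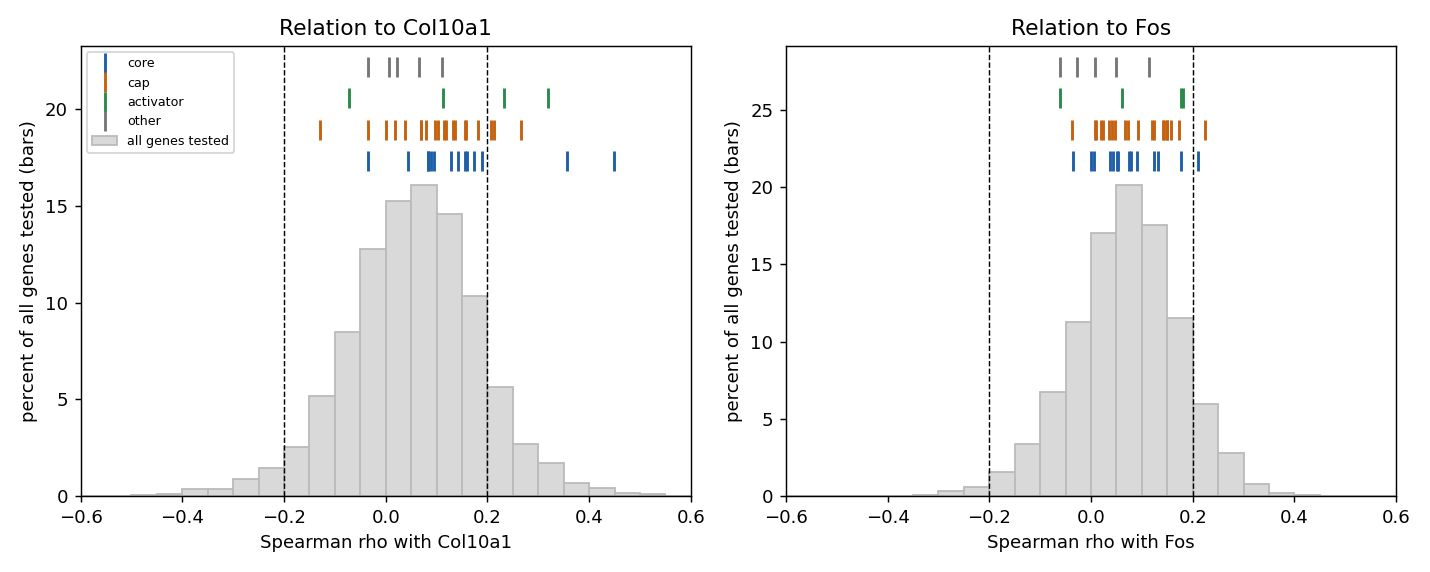
Grey bars are the percent of all 5379 genes tested (vertical axis) by Spearman rho with Col10a1 (left panel) or Fos (right panel) over all profiles, ticks above them are the 43 proteasome genes by class, and dashed lines mark 0.2 and -0.2. In the left panel 7 ticks lie at or beyond 0.2, with Psma7 at 0.45 and Psmb6 at 0.36, and in the right panel 2 do.

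Psma7, an alpha subunit of the core, had the strongest relation to Col10a1 among the members, at a rho of 0.45 (0.40 given genes detected), and 20 of the 5379 genes had a higher one. In the profiles with Col10a1 its lowest, median and highest levels were 4.06, 8.05 and 10.35 on the log2 scale. In the 39 profiles without, they were 0, 7.22 and 8.59. Both groups overlapped widely, with means of 7.86 ± 1.06 and 6.80 ± 1.64. Over the profiles with Col10a1 alone, a set added after the data were seen, the rho was 0.33. The gene lies on chromosome 2, 180036374 to 180042433 (minus strand, GRCm38), and none of its 50-base words occurs in another gene's transcript.

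Psmb6, the caspase-like subunit, had a rho of 0.36 (0.30 given genes detected), and 76 genes had a higher one. Its levels with Col10a1 were 0, 8.13 and 10.12 (lowest, median and highest), and without it 3.86, 7.54 and 9.32. A profile with Col10a1 thus held the lowest value of all, and that profile had the fewest detected genes (1326). Means were 7.95 ± 1.18 and 7.35 ± 1.34. Over the profiles with Col10a1 alone its rho was 0.38.

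Psme4 had a rho of 0.32 (0.24 given genes detected). It was detected in 100 profiles with Col10a1 and in 22 of the 39 without (56.4%), with median levels of 3.40 and 2.26. Psmc3, an ATPase of the cap, had a rho of 0.27 (0.23 given genes detected), with median levels of 6.01 and 5.86. It was 0.20 over profiles of any Acan level, just under the limit of 0.2. Psme1 (0.23), Psmc1 (0.21) and Psmd8 (0.21) followed, and each fell below 0.2 given genes detected (0.19, 0.17 and 0.17).

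At the other end, Psmd6, a lid subunit, had a rho of -0.13 (-0.19 given genes detected), with median levels of 6.73 with Col10a1 and 7.26 without. Psme2 (-0.07), Psmg4 (-0.04), Psma6 (-0.03) and Psmd13 (-0.03) came next. Subunits of 1 complex thus had values from -0.13 to 0.45, and alpha subunits alone from -0.03 (Psma6) to 0.45 (Psma7). The differences between these values were not tested.

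**Figure D5:**
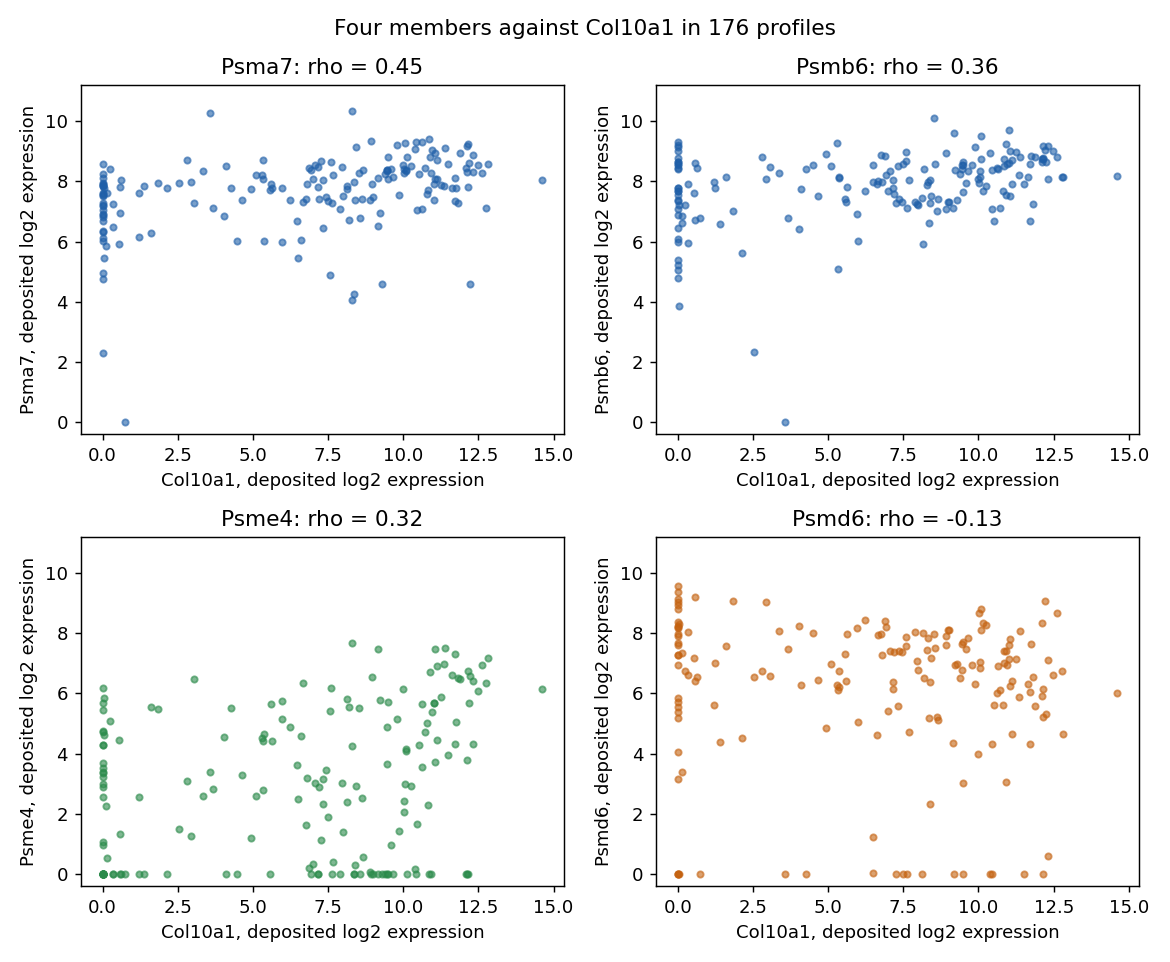
Each point is 1 profile, with its deposited log2 expression of Col10a1 on the horizontal axis and of Psma7, Psmb6, Psme4 or Psmd6 on the vertical axis. Psma7 and Psmb6 (rho 0.45 and 0.36) are lower on average where Col10a1 is near 0, with wide overlap, Psme4 (0.32) holds many zeros throughout, and Psmd6 (-0.13) is slightly lower at high Col10a1.

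Other measures moved with Col10a1 as well. Profiles with it held a median of 3542 detected genes and those without 3025. The 6 osteoblast markers (Col1a1, Col1a2, Bglap, Ibsp, Sp7 and Dmp1), with a median share of 17.6%, had a summed level of 0 to 15.28 (median 5.84, log2 scale) with Col10a1 and of 0 to 8.45 (median 5.55) without, and none of the 6 was at 0 in all profiles. The rho of this sum was 0.06 with Psma7, 0.12 with Psmb6, 0.17 with Psme4 and 0.03 with Psmc3. With the other members at 0.2 or above with Col10a1, it was 0.03 (Psme1), -0.04 (Psmc1) and 0.21 (Psmd8, 0.18 given genes detected). Single genes of the sum differed. Col1a1 had 0.24 with Psma7, 0.23 with Psmb6 and 0.24 with Psmc3 (0.19, 0.17 and 0.21 given genes detected). Bglap had 0.25 with Psmc3 (0.24 given genes detected). Dmp1 had 0.17 with Psma7, 0.16 with Psmb6 and 0.22 with Psme4 (0.12, 0.11 and 0.17 given genes detected). Col1a2, the most often detected of them (88.6%), had -0.10 with Psma7 and 0.01 with Psmb6, and Sp7 had 0.07 and -0.01. Among hypertrophic markers, Ihh had a rho of 0.14 with Psma7 and 0.08 with Psmb6, Spp1 0.18 and 0.15, and Mmp13 0.04 and 0.12. Ibsp, which is on both lists, had 0.25 with Psma7, 0.24 with Psmb6 and 0.30 with Psme4 (0.19, 0.18 and 0.22 given genes detected). Given genes detected, the values with Psma7 and Psmb6 were 0.06 and -0.0002 for Ihh, 0.13 and 0.11 for Spp1, and -0.02 and 0.07 for Mmp13. Sox9, the master regulator of chondrocytes, had -0.31 with Psma7 and -0.27 with Psmb6 (-0.26 and -0.21 given genes detected). Acan, the gene used for selection, had 0.28 and 0.20 (0.25 and 0.18 given genes detected). Of the other chondrocyte markers, Col9a1 had -0.04 and -0.25, Col11a1 -0.13 and -0.26, Hapln1 -0.16 and -0.10, and Lect1 -0.12 and -0.07. Matn1 had 0.20 and 0.10, and Col2a1 0.06 and 0.03. The part of genes detected and of bone cell markers in the relation to Col10a1 was not tested beyond the values given.

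Fos encodes an immediate-early transcription factor that can be induced by tissue dissociation as well as by signals in the tissue. It ranged from 0 to 11.45 (median 7.15) and was detected in 85.2% of the profiles. The median rho with it was 0.07 over the 43 members and 0.07 over 5379 genes. A rho of at least 0.2 was reached by 2 of the 43, Psmd3 (0.22) and Psmb6 (0.21), beside a background of 9.85% of all genes, and no member was at or below -0.2, beside 1.02%. Given genes detected, these values were 0.11 and 0.13 and no member reached 0.2, beside 2.44% of all genes, or -0.2, beside 1.82%. The mean over the 36 core and cap genes had a rho of 0.28 with Fos and of -0.005 given genes detected. After upper-quartile scaling 14 of the 43 single members reached 0.2, beside 21.8% of all genes. Psme1, Psme4 and Psma7 followed at 0.18 each. The lowest were Psme2 and Psmg3 (-0.06 each), Psmd13 and Psma3 (-0.04 each) and Psmg4 (-0.03). Fos and Col10a1 had a rho of 0.34 with each other, so that their relations to the members are not separate observations.

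Other genes of the ubiquitin and proteasome pathway were taken from lists chosen with earlier results of these data known. Among genes that encode ubiquitin, Ubb, a polyubiquitin gene, was at 11.36 ± 0.53 on the log2 scale and had a rho of 0.17 with Col10a1 and 0.14 with Fos. Rps27a, which encodes ubiquitin fused to a ribosomal protein, was at 4.83 ± 1.09 and had 0.17 with Col10a1 and 0.27 with Fos. Values of ubiquitin genes are uncertain, because their coding sequences are alike and reads could be split between them.

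Among genes of proteasome-associated proteins, 1 of 8 tested had a rho of at least 0.2 with Col10a1 and 1 of at most -0.2, beside 11.5% and 3.27% of all genes. These were Shfm1, for the smallest cap subunit (0.24, and 0.23 given genes detected, level 7.99 ± 0.73), and Txnl1, for a thioredoxin-like protein bound to the cap (-0.20, and -0.29 given genes detected, level 5.53 ± 2.13). AI314180, for the scaffold Ecm29, reached 0.23 with Fos (0.17 given genes detected). Of 15 tested genes for E1 and E2 enzymes, Ube2d1 (0.26) and Ube2g1 (0.22) reached 0.2 with Col10a1, a share near the 11.5% of all genes, and with genes detected held constant they had 0.22 and 0.14. The lowest was Uba6 (-0.14). Of 10 genes for the segregase p97 and its partners, which extract proteins for degradation, Derl2 did (0.27, and 0.196 given genes detected), and Faf2 was lowest (0.01). Among shuttle factor genes, whose proteins carry ubiquitinated cargo, Sqstm1 had a rho of 0.05 with Col10a1 and Rad23b of -0.07.

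The regulator Nfe2l1, which drives proteasome genes when proteasomes are inhibited, was detected in 1.70% of profiles at a mean of 0.06 ± 0.21, and its relative Nfe2l2 in 59.7% at 3.18 ± 2.92, with a rho of 0.22 with Col10a1 (0.15 given genes detected). Of 8 tested heat shock and cochaperone genes, none reached 0.2 with Col10a1, beside 11.5% of all genes, or -0.2, beside 3.27%. Bag3 and Dnajb1 were highest at 0.17 and Hspa8 lowest at -0.19. With genes detected held constant, 2 were at or below -0.2 (Hspa8 at -0.21 and Hspa4 at -0.20), beside 5.26% of all genes. Dnajb1 reached 0.25 with Fos (0.13 given genes detected). The 8 genes of the chaperonin that folds actin and tubulin, a ring complex of similar abundance (median level 7.46), had a median rho of -0.13 with Col10a1. None reached 0.2, beside 11.5% of all genes, and Cct6a (-0.34) and Cct4 (-0.23) were at or below -0.2, beside 3.27%. With genes detected held constant, Cct6a had -0.29 and Cct4 -0.24, and the median of the 8 genes was -0.17. The highest of the 8 genes, Cct7 (-0.00), lay below the median of all genes (0.06).

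The 11 profiles with a deposited Acan value below 5 were kept out of the results above. They held 2187 to 4118 detected genes (median 2757) and 22 to 40 of the 46 proteasome genes (median 30). Psme4, for the activator PA200, was at a median of 6.63 (0 to 8.02, mean 5.77) on the log2 scale in them, beside a mean of 3.08 in the others. It was the only member with a mean at least 2 higher, beside 3.01% of all genes. Psmc1 (mean 3.28 beside 6.10), Psmb5 (2.67 beside 4.80) and Psma6 (5.74 beside 7.76) were at least 2 lower, beside 6.15% of all genes. The inducible Psmb10 was at 1.87 beside 0.58, with a median of 0 in both. Of the 46 members 12 had a higher mean in these profiles, and the median difference was -0.52, beside -0.16 over all genes. These values are a description, with no test.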

How the data were processed

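Poly(A) RNA of single cells was made into cDNA with a SMARTer kit and into libraries with Nextera XT, per the labels' protocols. The submitters' processing notes name TopHat and mm10. Quantifier, annotation and filters: not given in the sources used here, although every gene listed is above 0 in at least 10 columns. The authors deposited 1 table of log2 values (0 to 15.1) for 9739 named genes in 217 columns. The base and a pseudocount of 1 were inferred from the values: back-transformed column totals ran from 394406 to 616257.

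Columns with a Pearson r above 0.95 to each other were averaged, and 1 column was left out by the member rule. Members and gene lists were chosen with earlier results of these data known. Levels are means ± SD over profiles. Relations are Spearman rho over genes detected in at least 20% of profiles, called at 0.2 or -0.2, and also computed with genes detected held constant (partial rank correlation). The rule for named genes took, per subclass, the highest and lowest mean, all activators, the 5 highest and lowest rho per axis gene, the 10 genes most like the core and cap mean, and the highest and lowest rho of each list. Some genes that this rule names are not reported here. The software was SciPy 1.17.1, NumPy 2.4.6, NetworkX 3.6.1, pandas 2.3.3 and matplotlib 3.10.9 under Python 3.11.15. Gene positions and transcripts came from GENCODE and promoters from RefSeq, both GRCm38. The script for rank correlations was tested on simulated data.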

Additional observations from a re-analysis of the deposited data

How the results depend on the processing

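Results that moved by more than their spread over profiles or members, their interval or, for counts, a factor of 1.5 are as follows. The cap's median level was 4.57 after the log2 of transcript length in kilobases was subtracted from the mean levels. With detection set at 10 in place of 1, the median share was 80.1% for the cap and 30.97% for the activators. With a pseudocount of 0.1 the activators' median level was 0.12. Within their spread, the same pseudocount gave 7.96 for Psmb7 minus Psmb10 (beside 5.54), and subtraction of log2 length gave 0.76 for the activators (beside 1.99). The count of members at a rho of at least 0.2 with Col10a1 was 16 with upper-quartile scaling and 4 with genes detected held constant, beside 7. For Fos it was 14 with upper-quartile scaling, 1 without the 10% of profiles with fewest genes, 0 over all profiles whatever their Acan, 1 among members detected in at least 50% of profiles and 0 with genes detected held constant, beside 2. Upper-quartile scaling also gave a median rho of 0.17 with Fos and of 0.20 within the core. The cause of these shifts was not tested. For single genes, 17 values fell below 0.2 and 4 rose above it, the others stayed on their side, and none of those called changed sign. Psma7, Psmb6 and Psme4 stayed above 0.2 with Col10a1 under every alternative run (0.33 to 0.54, 0.29 to 0.43 and 0.21 to 0.35). No paired analysis was possible because all columns belong to 1 group. Depth is unknown, a listed 0 can be a failed estimate, and the cells were treated as 1 sample, so no spread between animals could be had.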
